A study of Mus musculus with 6 samples.

Results

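Tripartite motif (TRIM) proteins are defined by a RING domain, which gives many of them ubiquitin ligase activity, followed by B-box zinc fingers and a coiled coil. The C-terminal domain differs between members and sets what each one binds. In macrophages the family is best known for control of virus sensing and interferon signalling, and several members are themselves induced by interferon. A few, such as Trim14, Trim16, Trim29, Trim44 and Trim66, carry no RING domain, so the ligase name does not cover every member.

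The members were all rows of the deposited expression table whose symbol is Trim followed by digits and an optional letter, which gave 67 of 25124 listed genes. RNA was compared between 3 libraries of RAW264.7 cells labelled E4BP4 knockout and 3 libraries of RAW264.7 cells labelled control. RAW264.7 is a mouse macrophage-like tumour line transformed by Abelson leukaemia virus, grown here without any treatment. E4BP4, encoded by Nfil3, is a bZIP transcription factor that mostly represses. The method of knockout, its clonality and the origin of the replicates (separate cultures or not) were not given in the labels. The p-values below therefore reflect only library-to-library spread, some of which may be technical. The targeted gene itself, Nfil3, was listed at 104.6, 104.0 and 99.8 TPM in the libraries labelled knockout, against 29.5, 29.9 and 31.0 TPM in the libraries labelled control. Its transcript was thus more abundant, not less, where the label says knockout, and a whole-gene TPM does not bear on small edits of the coding exons. Groups are called by their labels for that reason, and every direction below rests on the labels.

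The file headers recorded between 21.7 M and 23.3 M tags per library with the knockout label, against between 18.4 M and 21.7 M with the control label. All 8 macrophage markers examined were above the filter used here. Their summed level was 3442 to 3614 TPM under the knockout label, against 2510 to 2758 TPM under the control label. The higher sum came from Lyz2, the lysozyme gene, which averaged 2218 TPM under the knockout label, against 1069 TPM under the control label. Spi1 was also called higher, Csf1r, Adgre1, Fcgr3, Cd68 and Itgam were called lower (log2 fold changes of −0.64, −0.55, −0.41, −0.33 and −0.17), and Ptprc did not pass. Markers of 6 other cell types summed to at most 1.23 TPM in any library, with the epithelial marker Krt8 at 0 in all. T cell markers summed to between 4.02 and 4.19 TPM under the knockout label, against between 2.53 and 2.69 TPM under the control label, with Cd2 at 0. Most of that was Lck, a Src-family kinase of T cells, which averaged 4.08 TPM under the knockout label, against 2.54 TPM under the control label. The part of these marker levels in the TRIM results was not tested.

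Of the 67 members, 34 reached a TPM of 1 in at least 3 libraries and were tested, and 33 did not. TPM is a read number divided by transcript length and then scaled per library, so levels can be compared between genes. A fold change is given on the log2(TPM + 1) scale as knockout label minus control label, which understates the change of low genes. A change was called at a limma adjusted p under 0.05 (Benjamini-Hochberg over all 11257 genes tested). Among the 34 tested members there were 8 higher, 8 lower and 18 that did not pass. In bulk RNA, fewer cells expressing a gene and less RNA per cell cannot be told apart. Calls were common across the transcriptome: 50.1% of all tested genes passed, 26.7% higher and 23.4% lower, against 47.1% of the tested TRIM members. The share of members called was thus near that of all genes, and what follows concerns single members. Their median log2 fold change was 0.02, the same to 2 decimals as the median of all genes tested (0.02). No member moved by 1 or more on the log2 scale, a size that 2.25% of all tested genes reached with a call.

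The family's most abundant transcript was Trim28, followed by Trim35, Trim8, Trim25 and Trim59. These 5 made up 54.6% ± 0.276 of the summed family TPM in the libraries labelled knockout, against 53.7% ± 0.408 in the libraries labelled control (SD, n = 3 each). The sum over all 67 members was 698, 681 and 706 TPM under the knockout label, against 645, 692 and 682 TPM under the control label. Those sums overlapped between the groups (exact permutation test, two-sided, p = 0.3, where the smallest p possible with 3 against 3 is 0.1). Without Trim28 the sums averaged 533 TPM under the knockout label, against 534 TPM under the control label. Across the 34 tested members, which share the same 6 libraries, log2 mean TPM and log2 fold change had a Pearson r of 0.04, given as a description. In all, 19 members averaged at least 10 TPM over the 6 libraries.

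**Figure D1:**
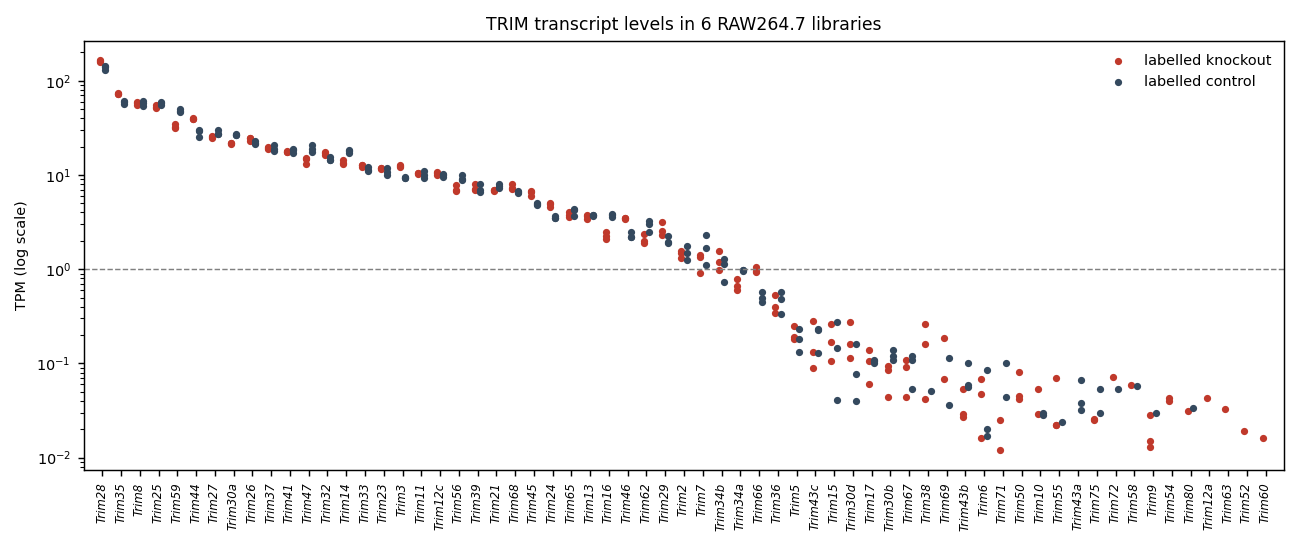
TPM on a log axis for each TRIM member listed above 0 in at least 1 library, ordered by mean TPM, with 1 point per library (values of 0 are not drawn) and the dashed line at 1 TPM. Trim28 stood highest, and the members right of Trim34b fell below the filter.

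Of the 33 members not tested, 4 were listed at 0 in all libraries: Trim31, Trim40, Trim42 and Trim61. For 30 of the 33, no library was above 0.3 TPM. They included members known mainly from striated muscle, Trim54, Trim55, Trim63 and Trim72, and Trim9, Trim67 and Trim71, known from neurons or embryonic cells. The remaining Trim34a, Trim66 and Trim36 lay between these and the filter.

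In all, 8 members were higher under the knockout label, among them Trim44, which lacks a RING domain and is known to stabilise other proteins against ubiquitin-dependent degradation. Trim44 (mm10 chr2:102300119-102400900, minus strand) was at 39.1, 39.4 and 40.6 TPM in the libraries labelled knockout, against 25.4, 29.8 and 29.5 TPM in the libraries labelled control. The groups did not overlap (log2 fold change 0.48, SE 0.06, limma adjusted p = 0.000149). Trim46, which bundles microtubules at the start of the axon in neurons, was at 3.49, 3.47 and 3.44 TPM under the knockout label, against 2.20, 2.51 and 2.17 TPM under the control label (log2 fold change 0.44, limma adjusted p = 0.0013). Its libraries labelled knockout were nearly equal and all above the libraries labelled control, on 146 to 158 against 78 to 103 reads per library. Annotated exons of Trim46 share 239 bases with Krtcap2 on the opposite strand, an abundant gene (265.4 TPM on average under the knockout label, against 257 TPM under the control label) that did not pass. The library kit as labelled does not mark strand. The transcripts listed with the TPM do not overlap, however: Trim46 is at chr3:89234177-89245199 and Krtcap2 at chr3:89246438-89249729. The shared stretch thus involves other annotated transcripts, and its part in the TPM of Trim46 was not tested.

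Trim24, Trim35 and Trim45 rose too. Trim24, a chromatin reader and nuclear receptor coregulator, was at 5.03, 4.58 and 4.91 TPM in the libraries labelled knockout, against 3.46, 3.52 and 3.63 TPM in the libraries labelled control (log2 fold change 0.36, limma adjusted p = 0.00184). Trim35 (chr14:66297025-66311424, plus strand), reported to restrain the interferon regulatory factor IRF7, was the second most abundant member, at 74.8, 72.3 and 71.9 TPM under the knockout label, against 56.5, 59.2 and 61.4 TPM under the control label. All libraries labelled knockout lay above the others, a ratio of mean TPM of 1.24 (log2 fold change 0.30, limma adjusted p = 0.000266). Trim45, which has a filamin-type repeat, was at 6.54, 5.97 and 6.78 TPM under the knockout label, against 4.96, 5.03 and 4.85 TPM under the control label (log2 fold change 0.32, limma adjusted p = 0.00293).

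Trim32, an NHL-repeat ligase mutated in a limb-girdle muscular dystrophy, rose as well. It was at 16.4, 17.4 and 16.9 TPM in the libraries labelled knockout, against 14.4, 15.4 and 14.3 TPM in the libraries labelled control (log2 fold change 0.19, limma adjusted p = 0.0111). Trim3, another NHL-repeat member known from brain, was at 12.8, 12.1 and 12.4 TPM under the knockout label, against 9.39, 9.22 and 9.53 TPM under the control label (log2 fold change 0.37, limma adjusted p = 0.000236). With chromosome medians subtracted Trim3 stood at 0.13 and its call was lost (adjusted p = 0.0617). Trim28 (chr7:13024152-13031032, plus strand), the corepressor that KRAB zinc finger proteins bring to chromatin, was at 162, 159 and 165 TPM under the knockout label, against 132, 145 and 140.3 TPM under the control label (log2 fold change 0.22, limma adjusted p = 0.00186; −0.02 once the medians of chromosomes were subtracted). Neither gene's groups overlapped, and both lie on chromosome 7, whose shift as a whole is described further on.

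**Figure D2:**
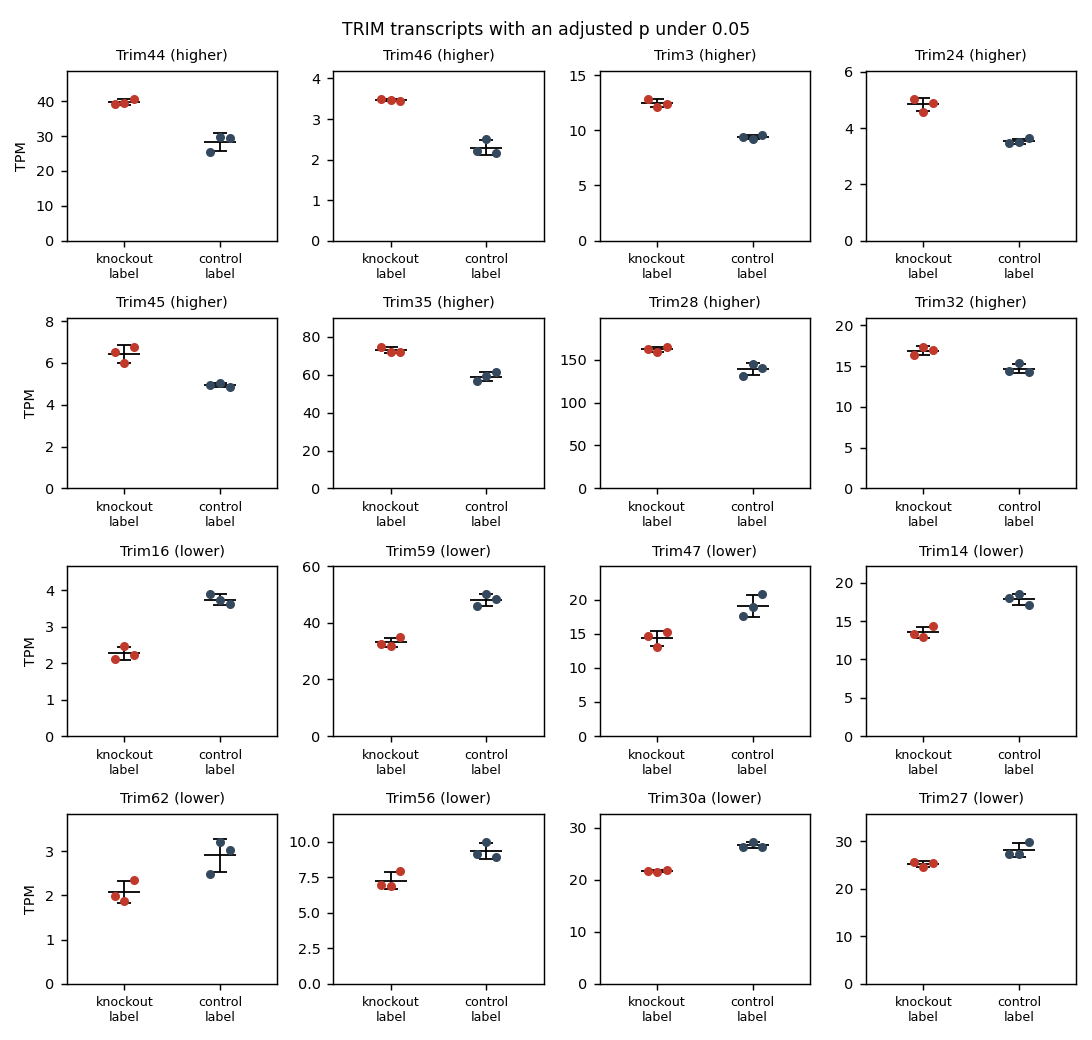
TPM of the 16 called TRIM members in each library, knockout label left and control label right in each panel, with the mean and SD (n = 3) in black and each axis starting at 0. In every panel the libraries of 1 label lie all above those of the other.

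Another 8 members were lower under the knockout label. Trim59 (chr3:69035294-69044742, minus strand), which is anchored in membranes by a transmembrane segment, showed the smallest adjusted p of the family and was the fifth in level. It was at 32.7, 31.8 and 34.9 TPM in the libraries labelled knockout, against 46.1, 50.1 and 48.3 TPM in the libraries labelled control (log2 fold change −0.53, SE 0.05, limma adjusted p = 2.19e-05). Trim16 (chr11:62820253-62842948, plus strand), a member without a RING that acts with galectin-3 in clearance of damaged lysosomes in human cells, also fell. It was at 2.12, 2.46 and 2.23 TPM under the knockout label, against 3.89, 3.73 and 3.61 TPM under the control label (log2 fold change −0.54, SE 0.08, limma adjusted p = 0.0004). Mean TPM of Trim16 was 2.27 ± 0.175 with the knockout label, against 3.74 ± 0.139 with the control label (SD, n = 3 each), which gives a ratio of 0.606. On the log2(TPM + 1) scale these 2 were the only members called with a change of at least 0.5 in size. Of all tested genes, 10.9% reached that. In the authors' deposited table the called members Trim46 and Trim62 reached it too (0.57 and −0.50).

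Trim14, Trim56 and Trim30a fell as well. Trim14, a RING-less adaptor of the mitochondrial protein MAVS, was at 13.4, 12.9 and 14.3 TPM in the libraries labelled knockout, against 18.05, 18.5 and 17.1 TPM in the libraries labelled control (log2 fold change −0.38, limma adjusted p = 0.000348). Of its annotated exon bases, 31.3% are shared with Nans on the opposite strand, which averaged 65.2 TPM under the knockout label, against 70.4 TPM under the control label, and fell by 0.11 on the log2 scale (limma adjusted p = 0.0422). The transcripts listed with the TPM do not overlap, however: Trim14 is at chr4:46505072-46536141 and Nans at chr4:46489329-46503438. The shared stretch thus involves other annotated transcripts, and its part in the TPM of Trim14 was not tested. Trim56, which acts on the STING and double-stranded RNA pathways, was at 6.96, 6.84 and 7.91 TPM under the knockout label, against 9.15, 9.97 and 8.91 TPM under the control label (log2 fold change −0.33, limma adjusted p = 0.00351). Trim30a (chr7:104409026-104465193, minus strand), an interferon-induced mouse protein that lowers TAB2 and TAB3, was at 21.8, 21.5 and 21.9 TPM under the knockout label, against 26.4, 27.3 and 26.3 TPM under the control label (log2 fold change −0.28, limma adjusted p = 0.000359). In each of these genes the libraries labelled knockout were all below the libraries labelled control.

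Trim47 and Trim62 also fell. Trim47 was at 14.7, 13.1 and 15.2 TPM in the libraries labelled knockout, against 17.6, 18.9 and 20.8 TPM in the libraries labelled control (log2 fold change −0.39, limma adjusted p = 0.00173). Over all annotated transcripts, its exons share 225 bases with the neighbouring Trim65 on the same strand. The transcripts listed with the TPM do not overlap, however (Trim47 at chr11:116105750-116110235, Trim65 at chr11:116124708-116131128). What the shared stretch adds to either TPM was not tested. Trim62 was at 1.99, 1.88 and 2.35 TPM under the knockout label, against 2.49, 3.21 and 3.03 TPM under the control label (log2 fold change −0.35, limma adjusted p = 0.019). That call was lost without any 1 of 4 libraries, namely replicates 1 and 2 of the knockout label and replicates 2 and 3 of the control label (adjusted p = 0.0538, 0.0671, 0.0661 and 0.0577), and without a filter on low values (0.0563). Trim27, a ligase of the WASH and retromer pathway, fell to 25.7, 24.5 and 25.4 TPM under the knockout label, against 27.3, 27.4 and 29.9 TPM under the control label (log2 fold change −0.15, limma adjusted p = 0.0256). The Trim27 call was lost without any 1 knockout-labelled library (adjusted p = 0.0504, 0.0876 and 0.0529 for replicates 1, 2 and 3) or without control replicate 3 (0.101).

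Among the 18 members that did not pass were Trim8 and Trim25, the third and the fourth in level. Trim8, which promotes TAK1 and NF-κB signalling, was at 58.7, 54.8 and 59.0 TPM in the libraries labelled knockout, against 54.7, 57.7 and 60.5 TPM in the libraries labelled control (log2 fold change −0.00, SE 0.05, limma adjusted p = 0.977), and the groups overlapped. Trim25, the interferon-induced ligase that ubiquitinates RIG-I, was at 52.8, 51.8 and 55.7 TPM under the knockout label, against 54.8, 60.3 and 57.6 TPM under the control label. Those groups overlapped (log2 fold change −0.11, limma adjusted p = 0.0919), whereas the authors' deposited table gave −0.12 with an adjusted p of 0.0163. Without control replicate 1 the limma adjusted p of Trim25 was 0.0291, and that of Trim21 was 0.0419. Among the 34 tested members, the authors' deposited table called Trim25 and the same 16 members as here, those 16 in the same direction.

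For 4 of the 18 the groups did not overlap even though the test was not passed: Trim21, Trim26, Trim29 and Trim68. Without overlap were 20 of the 34 tested members in all, against 58.5% of all tested genes. Trim21, the cytosolic antibody receptor, was at 6.79, 6.86 and 6.91 TPM in the libraries labelled knockout, against 7.28, 8.03 and 7.71 TPM in the libraries labelled control (limma adjusted p = 0.0685). Trim26, reported to act on nuclear IRF3, was at 24.9, 23.0 and 24.6 TPM under the knockout label, against 22.0, 22.8 and 21.2 TPM under the control label (limma adjusted p = 0.0537). Trim29, another member without a RING, was at 2.30, 2.55 and 3.18 TPM under the knockout label, against 1.92, 1.94 and 2.28 TPM under the control label (limma adjusted p = 0.0639). Trim37, which limits centriole assembly, had a log2 fold change of 0.00, with a sign that turned under upper-quartile scaling, and Trim41, Trim13, Trim2, Trim39 and Trim11 lay between −0.05 and 0.05 on that scale.

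**Figure D3:**
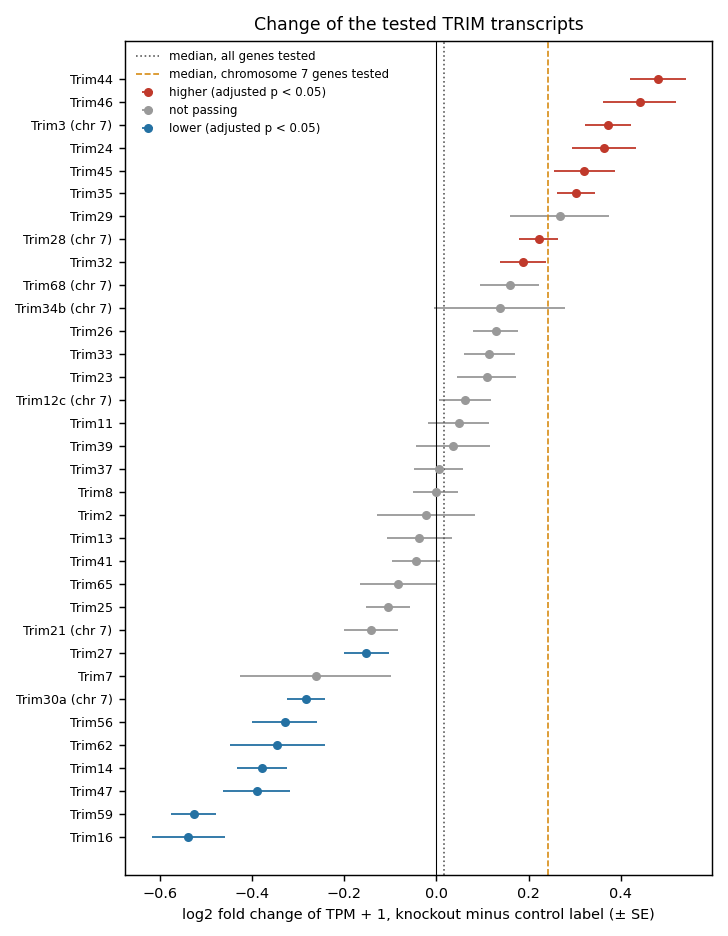
Log2 fold change of TPM + 1 with its SE for each of the 34 tested members, knockout label minus control label, sorted by size and coloured by call. The dotted line marks the median of all genes tested and the dashed line the median of the chromosome 7 genes (0.24), to the right of every chromosome 7 member except Trim3.

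By role, among 12 tested regulators of innate sensing 1 rose (Trim35), 3 fell (Trim14, Trim56, Trim27) and 8 did not pass, with a median log2 fold change of −0.06. That is 33.3% called, against 50.1% of all tested genes. With limma-voom on recovered reads 2 rose and 5 fell, and on the stabilized values 3 rose and 4 fell. Upper-quartile scaling, or leaving out control replicate 1, gave 5 falls, Trim21 and Trim25 added. The rises numbered 2 without replicate 1 or 2 of the knockout label or without control replicate 2. The TIF1 corepressors, which pair a TRIM motif with a PHD finger and bromodomain, had 2 of 3 tested members higher, Trim24 and Trim28. Trim33, a TIF1 member that ubiquitinates Smad4, was at 12.2, 12.7 and 12.7 TPM in the libraries labelled knockout, against 11.3, 12.3 and 11.0 TPM in the libraries labelled control, and did not pass (limma adjusted p = 0.118). The fourth TIF1 gene, Trim66, stayed below the filter at 0.954, 0.933 and 1.06 TPM under the knockout label, against 0.446, 0.572 and 0.497 TPM under the control label, from 134 to 157 and 60 to 79 reads per library. In a fit with no filter it was called higher (log2 fold change 0.40, limma adjusted p = 0.00276), and it lies on chromosome 7. The authors' deposited table called Trim66 higher as well (log2 fold change 0.95, adjusted p = 1.83e-06). Of 3 tested NHL-repeat members, Trim3 and Trim32 rose and Trim2 did not pass. Only Trim46 was tested among the 8 COS-box and muscle members.

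Genes that work with the TRIM ligases moved in both directions. Among 26 tested partners and substrates, 6 rose and 10 fell, with a median log2 fold change of −0.04 against 0.02 for all genes. That is 61.5% called, against 50.1% of all tested genes. Irf7 had the largest change, at 4.17 TPM on average under the knockout label and 13.0 TPM under the control label (log2 fold change −1.43, limma adjusted p = 3.46e-07). Ikbke, the IKK-epsilon kinase gene, fell by 0.63 on the log2 scale and Ddx58, which encodes RIG-I, the Trim25 substrate, fell by 0.77. Mavs, Ifih1 and Tmem173 (STING) also fell, with log2 fold changes of −0.29, −0.32 and −0.37. Sqstm1, the autophagy receptor p62, rose to 373 TPM under the knockout label, against 193 TPM under the control label (limma adjusted p = 6.95e-08). Irf3 and Traf6 rose too, with log2 fold changes of 0.36 and 0.69. Irf3, like Irf7, lies on chromosome 7, whose upward shift as a whole is described further on. Of the chromatin partners of Trim28, Cbx5 and Cbx1 fell by 0.23 and 0.13 on the log2 scale, and Setdb1 and Cbx3 did not pass.

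The ubiquitin-activating and ubiquitin-conjugating enzymes that supply the ligases were called in both directions. Of 16 tested, 3 rose, 5 fell and 8 did not pass, and 3 fell without replicate 3 of the knockout label or without control replicate 2 or 3. The share called was near the 50.1% of all tested genes. Ube2w, the enzyme that primes human TRIM5 and TRIM21 with a single ubiquitin, was higher at 40.3 TPM under the knockout label, against 27.4 TPM under the control label (log2 fold change 0.54, limma adjusted p = 4.99e-06). Ube2e2 rose by 0.77 on the log2 scale. The falls ran from −0.25 for Ube2l3 to −0.13 for Ube2d2a, and Ube2n, which builds lysine-63 chains, did not pass. Of 11 relatives under other names, 3 were tested and all passed. Pml (TRIM19), the scaffold of nuclear bodies, fell to 8.54 TPM under the knockout label, against 14.2 TPM under the control label (log2 fold change −0.68, limma adjusted p = 1.12e-05). Rnf135, a RIG-I ligase, fell by 0.37 on the log2 scale, and Mid1 (TRIM18) rose by 0.38.

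A list of 20 interferon-stimulated genes gives the scale of that response in the same libraries: 15 of 16 tested members were lower, none was higher, and the median log2 fold change was −0.85. Every one of the 34 tested TRIM members had a smaller change than that median, those known as interferon-induced included. As examples, not a full list of interferon-induced members, Trim30a, Trim21 and Trim25 had log2 fold changes of −0.28, −0.14 and −0.11. Of these only Trim30a passed. The relative Pml (TRIM19), not counted among the 34, was called lower at −0.68. Trim21 and Trim25 were called lower with upper-quartile scaling and with limma-voom on recovered reads. Among the regulators of innate sensing, Trim14, Trim56 and Trim27 were called lower (−0.38, −0.33 and −0.15) and Trim35 higher (0.30).

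**Figure D4:**
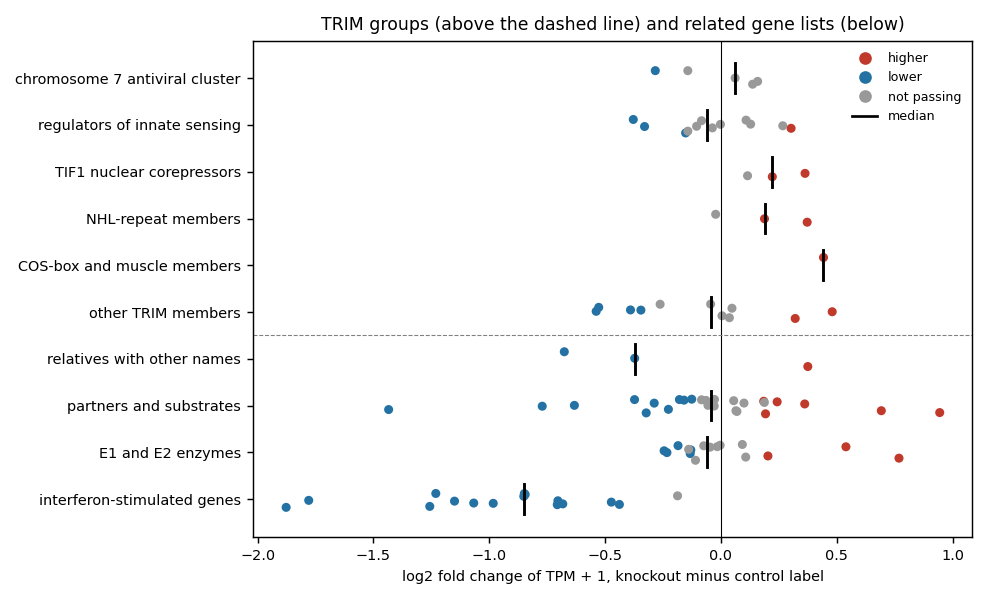
Log2 fold change of each tested gene in the TRIM groups (above the dashed line) and in related gene lists (below), coloured by call, with each list's median as a black bar. The TRIM groups lie within 0.6 of 0, whereas interferon-stimulated genes reach −1.88.

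A cluster of members known for antiviral roles lies on chromosome 7 near the beta-globin genes, and 7 of its 11 promoter windows carry an interferon-response element. Trim21 and Trim68 were counted in it by position, at −1.88 and −1.75 Mb from Trim30a. Trim3, at 1.185 Mb from Trim30a, was placed with the NHL-repeat members instead, so the counts depend on where the cluster is taken to end. Promoter windows from 250 bases before to 50 bases after the start of the listed transcript were available from RefSeq (GRCm38.p6) for 51 of the 67 members. The interferon-stimulated response element, searched on both strands as GAAA, any 2 bases and GAAA again, was found in 7 of 11 cluster windows and in 1 of 40 windows of all other members. Of all 32851 promoter windows in the table, 3.44% held it. The stretches are shown because neighbouring paralogs carry the same element in nearly the same surroundings. They lie at chr7:104465185-104465264 (Trim30a), chr7:104507846-104507925 (Trim30d), chr7:104353334-104353413 (Trim12c), chr7:104288111-104288190 (Trim5), chr7:104315466-104315520 (Trim12a) and chr7:102565453-102565504 (Trim21) on the minus strand. Trim34a lies at chr7:104244432-104244486 and Trim26 at chr17:36836951-36837036 on the plus strand. Each is written 5′ to 3′ along its gene, with the matches in capitals (TTTC, 2 bases and TTTC where the match is on the other strand).
Trim30a: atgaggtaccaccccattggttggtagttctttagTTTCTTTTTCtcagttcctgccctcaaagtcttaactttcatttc
Trim30d: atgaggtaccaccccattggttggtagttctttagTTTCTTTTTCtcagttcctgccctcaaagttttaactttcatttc
Trim12c: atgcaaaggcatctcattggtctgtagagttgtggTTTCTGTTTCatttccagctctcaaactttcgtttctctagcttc
Trim5: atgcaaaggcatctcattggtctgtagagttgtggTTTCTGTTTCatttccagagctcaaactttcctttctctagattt
Trim12a: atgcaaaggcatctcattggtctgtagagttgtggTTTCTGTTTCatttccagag
Trim34a: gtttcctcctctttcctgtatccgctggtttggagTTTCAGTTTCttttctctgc
Trim21: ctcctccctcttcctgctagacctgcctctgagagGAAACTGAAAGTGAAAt
Trim26: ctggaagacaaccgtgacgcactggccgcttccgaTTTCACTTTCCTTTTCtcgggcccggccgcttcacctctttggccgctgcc

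Trim30a and Trim30d were identical at 79 of these 80 bases and Trim12c and Trim5 at 75 of 80, whereas Trim12c and Trim30a shared 41 of 80. In Trim21 and Trim26 overlapping copies ran together. The windows' similarity did not go with similar RNA levels. Trim30a averaged 21.7 ± 0.21 TPM under the knockout label, against 26.7 ± 0.564 TPM under the control label (SD, n = 3 each), while Trim30d was at 0.159, 0.272 and 0.113 TPM, against 0.078, 0.04 and 0.161 TPM. Trim12c was at 10.6, 10.8 and 9.92 TPM in the libraries labelled knockout, against 10.1, 10.2 and 9.52 TPM in the libraries labelled control, while Trim5 stayed between 0.133 and 0.247 TPM and Trim12a was at 0 in 5 libraries and 0.043 TPM in 1. These paralogs resemble each other along their transcripts too, and how reads matching several of them were assigned is not given, so their separate values are uncertain.

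Of the 5 cluster members tested, Trim21 among them, only Trim30a passed. By comparison, 50.1% of all tested genes passed, and 520 of the 878 tested genes of chromosome 7 were higher and 73 lower. Whether the cluster differs from these shares was not tested. Without control replicate 1 there were 2 cluster members lower, and with chromosome medians subtracted there were 3. Trim68 was at 7.14, 8.06 and 7.26 TPM in the libraries labelled knockout, against 6.41, 6.54 and 6.84 TPM in the libraries labelled control (limma adjusted p = 0.0666). Trim34b was at 1.57, 0.973 and 1.21 TPM under the knockout label, against 1.12, 0.735 and 1.29 TPM under the control label, on 17 to 37 reads per library, and its groups overlapped. Its paralog Trim34a was below the filter at 0.782, 0.671 and 0.597 TPM under the knockout label, against 0.989, 0.95 and 0.969 TPM under the control label, and in a fit with no filter it was called lower (log2 fold change −0.23, limma adjusted p = 0.0318). The D-box form TTANGTAA, an E4BP4-type site, was found in none of the 25 windows of tested members and in 1 of all 51 windows, that of Trim38, against 2.32% of all windows. Trim38 was at 0.264, 0.162 and 0.042 TPM under the knockout label, against 0, 0 and 0.051 TPM under the control label. The STAT-type element TTCNNNGAA was found in 2 of the 25 windows of tested members, those of Trim45 and Trim46, a share near the 8.3% of all windows. No match says only that these letters are absent from these windows.

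Trim28, Trim3, Trim44 and Trim56 moved in the same direction as most called genes beside them, and most other called members did not. Tested genes of chromosome 7 were shifted upward as a whole: their median log2 fold change was 0.24 over 878 genes, with 520 higher and 73 lower, whereas the medians of the other chromosomes ran from −0.05 to 0.06. Of the 7 tested TRIM members there, 2 rose, 1 fell and 4 did not pass, and their own median was 0.14. With the median of each chromosome subtracted, the calls of Trim3 and Trim28 were lost (adjusted p of 0.724 for Trim28), and Trim21 and Trim12c were called lower (−0.38 and −0.18, adjusted p = 0.000615 and 0.0269). The subtraction lowered every chromosome 7 gene by the same amount, so the downward moves of these genes followed from it. Trim30a was lower before the subtraction (−0.28), against the direction of its chromosome. Its direction after the subtraction was therefore fixed in advance. The 13 other tested genes within 1 Mb of Trim28 had a median of 0.25, close to the 0.22 of Trim28 itself.

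Trim44 on chromosome 2 sat in a shorter stretch of the same kind, a pattern noticed after its values were seen. All 8 other tested genes within 1 Mb were higher under the knockout label, with a median log2 fold change of 0.48 beside 0.48 for Trim44. Within 10 Mb it was 39 higher and 1 lower of 46 genes, with a median of 0.43, whereas the 882 tested genes of chromosome 2 had a median of 0.00. Traf6, the signalling ligase named among the partners, lies in that stretch. The adhesion receptor gene Cd44 rose by 0.43 there, and Commd9, which acts in endosomal recycling, by 0.41, on the log2 scale. For Trim16, which fell, the 17 tested genes within 1 Mb had a median of 0.21, of the opposite sign. Around Trim56, which fell, the 37 tested genes within 1 Mb had a median of −0.21, with 5 higher and 20 lower. For Trim46, which rose, the 59 such genes had a median of −0.10, with 1 higher and 21 lower. For Trim2, which did not pass, the 6 such genes had a median of 0.32. Around Trim27, which fell, the median within 1 Mb was 0.19, and around Trim45, which rose, 0.11. For the called members Trim24, Trim35, Trim14, Trim47, Trim59 and Trim62 these medians lay between −0.08 and 0.07. What part the surrounding genes have in the values of Trim44, Trim28, Trim3 and Trim56 was not tested.

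**Figure D5:**
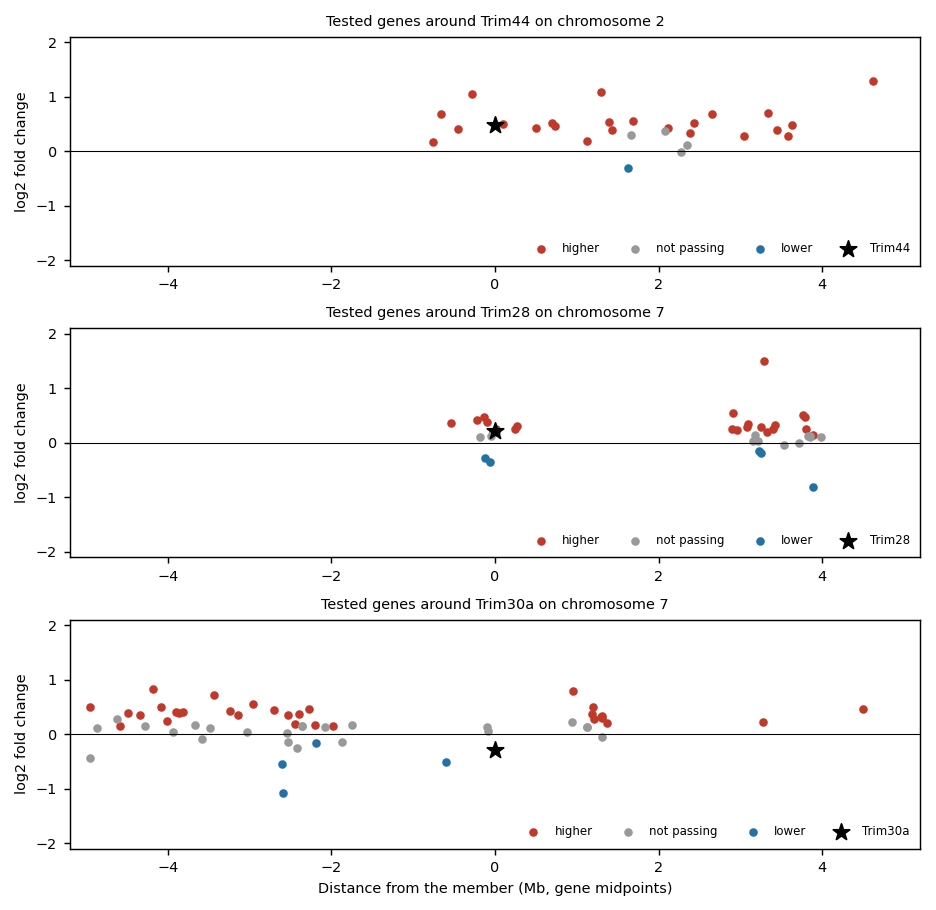
Log2 fold change of each tested gene within 5 Mb of Trim44, Trim28 and Trim30a (stars), against its distance from that member between gene midpoints, coloured by call. Genes around Trim44 were mostly higher at sizes like its own, while Trim30a lay below most of its neighbours.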

How the data were processed

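Tools listed, without roles, in the submitters' processing notes are STAR 2.7.5a, HOMER 4.11.1, bcl2fastq and DESeq2, with the genome build mm10. The authors deposited a TPM table of 25124 symbols and a second table of 24421 symbols with stabilized log2 values, their own log2 fold change, p-values and adjusted p-values. The first table also gives transcript length, per the file headers. The fold change of that second table, headed WT vs. TG, was read as knockout label over control label. TPM times length fell on whole multiples of 1 step per library, within 0.1 for 100% of the values checked. Reads obtained this way totalled 18.4 M, 19.9 M and 19.5 M under the knockout label, against 18.1 M, 18.1 M and 15.6 M under the control label, and they serve for depth and 1 alternative only.

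Genes with a TPM of at least 1 in at least 3 of 6 libraries were compared with limma 3.58.1 (R 4.3.3) on log2(TPM + 1) with a mean-variance trend, two-sided and unpaired. The method was tested on simulated data with few changed genes, a fixed fold of change and an assumed spread. Calls in the real data were far more common and mostly smaller, so that test does not cover this setting. No replicate pair agreed within sampling noise (chi-square per degree of freedom of recovered reads, 1.83 to 6.09). Members, groups, lists and motifs were chosen with earlier results of these data known. Values by library were to be given for members called with a log2 change of at least 0.5 in size and for the 3 most abundant, and other members were named after their values were seen, as were the exon overlaps and neighbouring genes. Exon overlaps came from GENCODE M21 (GRCm38, the assembly of mm10), over all annotated transcripts.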

Additional observations from a re-analysis of the deposited data

How the results depend on the processing

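The counts of called members, 8 higher and 8 lower, stayed within 1.5 times under every alternative tried. Trim16, Trim24, Trim46 and Trim62 were not tested at a minimum of 5 TPM. In the alternatives that tested them, the 16 members except Trim28 kept their direction, and 12 kept their call too (not Trim3, Trim28, Trim27 or Trim62). Leaving out 1 library at a time gave 8 to 10 higher and 6 to 10 lower. Same-numbered libraries did not deviate together (correlations −0.01, −0.06 and 0.00), so the numbers were not treated as pairs. With a replicate block 9 members were higher and 8 lower (Trim29 was added), and 3 conjugating enzymes fell in place of 5.

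Subtracting chromosome medians moved the family median to −0.0324 (0.02 as reported) and left 1 TIF1 and 1 NHL-repeat member higher and 3 chromosome 7 cluster members lower. It turned the sign of Trim28 (−0.0199), Trim12c (−0.18), Trim34b (−0.10), Trim68 (−0.0832), Trim8 (0.0267) and Trim39 (−0.00466). Upper-quartile scaling and limma-voom on recovered reads turned Trim37 (−0.0149 and −0.0154), and both called 5 innate regulators and 2 cluster members lower. Innate regulators called higher numbered 2 with limma-voom, 2 with the replicate block, 2 at a minimum of 5 TPM and 3 on the stabilized values. At a minimum of 5 TPM, 1 TIF1 member was higher, 0 COS-box members were tested or higher and 2 other members were lower. With no filter 2 cluster members were lower. The cause of these moves was not tested, beyond the fewer or more genes a filter lets through.

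With 1 library left out, uncalled members near 0 changed sign: Trim2 ranged from −0.0931 to 0.0492, Trim8 from −0.0386 to 0.0333, Trim11 from −0.00869 to 0.11, Trim37 from −0.0342 to 0.0512 and Trim39 from −0.0227 to 0.103. Enzymes called lower ranged from 3 to 4, cluster members lower from 1 to 2, innate regulators higher from 1 to 2 and lower from 2 to 5, and TIF1 members higher from 2 to 3. Depth limits the lowest tested members, Trim34b and Trim7, at 17 to 41 reads per library.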
